A study of Mus musculus with 8 samples.

Results

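The 43 genes described here act in G2 and in mitosis, from the cyclin-dependent kinase Cdk1 to the proteins that divide the cell. Each was named by its gene symbol and found on the arrays by matching the RefSeq accession of a probe, without its version, to the gene symbol, and the probe brightest in Cy5 stood for the gene. Of the 43 genes, 42 were measured, among 22662 genes tested in all. The remaining one, Aurkb, the kinase of the chromosomal passenger complex, had 1 probe, which was well above background on none of the 8 arrays, so no level is given for it. All 42 measured genes were well above background in Cy5 on all 8 arrays and none was saturated.

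Expression was measured on 8 two-colour Agilent mouse arrays in nephron progenitors, the cells of the cap mesenchyme from which nephrons form. The cells were sorted for EGFP from kidneys of C57BL/6 mouse embryos at embryonic day 15.5, and all carried the Six2CreEGFP transgene, so that Cre and EGFP were both driven by Six2. The 4 mutant pools came from Six2CreEGFP+; HDAC1&2f/f kidneys, with floxed alleles of Hdac1 and Hdac2, and the 4 wildtype pools from Six2CreEGFP+; HDAC1&2+/+ kidneys. Cy5 carried 0.5 µg of RNA of the pool in question and Cy3 always carried RNA of wildtype pool 1, whose own array therefore held one RNA in both dyes. The design text calls the pools biological replicates and does not state whether they share animals. In both groups the arrays of pools 3 and 4 agreed within technical noise and were averaged as 1 sample, which leaves 3 samples per group. The p-values measure only the spread between these samples. Every value below is a log2 ratio of Cy5 over Cy3, or a difference of such ratios, and sample values are listed in the order pool 1, pool 2, pools 3 and 4.

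Entry into mitosis is driven by Cdk1 bound to B-type cyclins, and exit by the anaphase-promoting complex (APC/C), which marks those cyclins for destruction. Transcripts of these genes rise together in G2 and fall in G1. Their promoters are held silent in resting cells by the DREAM complex and activated in cycling cells by B-Myb and FoxM1, which act with the MuvB proteins at a promoter element called the cell cycle genes homology region (CHR), often beside CCAAT boxes that bind NF-Y. HDAC1 and HDAC2 are the catalytic subunits of several co-repressor complexes and remove acetyl groups from histones.

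Of the 43 genes, 36 had a promoter in the RefSeq table of assembly GRCm38.p6, from 250 bases before to 50 after the annotated start. The CHR, searched as TTTGAA on both strands, was in 26 of the 36 (72.2%), against 20.2% of 27025 genes with a promoter window. The variant TTCGAA, which reads the same on both strands, was in 4 (Bub1, Bub1b, Cdc25b and Top2a), or 11.1% against 1.8%. A CCAAT box, searched as CCAAT on both strands, was in 28 (77.8%, against 41.1%), and both elements stood together in 23 (63.9%, against 7.97%). The tandem of a CDE and a CHR (GCG, 5 bases of any kind, then TTTGAA, on either strand, overlapping the CHR search) was in Ccnb2, Cdk1, Cenpf and Plk1, or 11.1% against 0.174%. Of the 36 CHR matches, 27 lay within 50 bases of the start on either side (75%), against 25.3% of the matches over all promoters. These matches were counted over 39 windows of the 36 genes, so an element in overlapping windows of a gene counts more than once. By gene, 24 of the 36 had a CHR match that near the start. These are matches of letters and were not tested for binding.

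The promoters of 6 genes are shown because they span the patterns described below, from 150 bases before to 20 after the start, on the strand of the gene, credited to RefSeq. Capitals mark the CHR, its variant and the CCAAT box on either strand. Cdk1 (chr10:69352893-69353062, minus strand) and Ccnb2 (chr9:70421535-70421704, minus strand) hold the tandem. Ccnb1 (chr13:100786467-100786636, minus strand) holds CCAAT boxes and no match to TTTGAA or TTCGAA in the window, and other forms of the CHR were not searched.
Cdk1: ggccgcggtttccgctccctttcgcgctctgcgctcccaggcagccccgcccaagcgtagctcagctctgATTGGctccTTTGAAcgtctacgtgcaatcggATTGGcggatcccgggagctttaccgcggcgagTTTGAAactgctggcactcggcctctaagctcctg
Ccnb2: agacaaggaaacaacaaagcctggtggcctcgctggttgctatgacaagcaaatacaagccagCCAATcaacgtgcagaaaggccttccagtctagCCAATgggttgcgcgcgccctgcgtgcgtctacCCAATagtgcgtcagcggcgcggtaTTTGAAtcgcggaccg
Ccnb1: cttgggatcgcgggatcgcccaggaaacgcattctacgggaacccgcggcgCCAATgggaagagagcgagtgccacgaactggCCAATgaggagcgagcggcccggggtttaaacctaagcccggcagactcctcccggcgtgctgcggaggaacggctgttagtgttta
Top2a (chr11:99024170-99024339, minus strand), Hmmr (chr11:40733418-40733587, minus strand) and Ube2c (chr2:164769779-164769948, plus strand) were among the genes lowest in the mutant of pool 1, and each holds a CHR and several CCAAT boxes. Other genes that low differ in this: Nuf2 had no match to any of these elements in its window, and Anln had a CHR but no CCAAT box.
Top2a: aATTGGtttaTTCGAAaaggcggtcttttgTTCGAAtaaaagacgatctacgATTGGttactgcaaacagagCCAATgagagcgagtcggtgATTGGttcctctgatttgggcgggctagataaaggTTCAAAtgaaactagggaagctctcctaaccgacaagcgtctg
Hmmr: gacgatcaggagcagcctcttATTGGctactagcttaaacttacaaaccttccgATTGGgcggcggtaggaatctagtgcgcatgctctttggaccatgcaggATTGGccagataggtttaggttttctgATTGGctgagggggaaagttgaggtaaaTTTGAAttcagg
Ube2c: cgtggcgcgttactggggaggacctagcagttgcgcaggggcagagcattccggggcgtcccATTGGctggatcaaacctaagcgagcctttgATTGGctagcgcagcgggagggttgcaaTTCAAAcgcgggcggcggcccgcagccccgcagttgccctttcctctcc

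**Figure D1:**
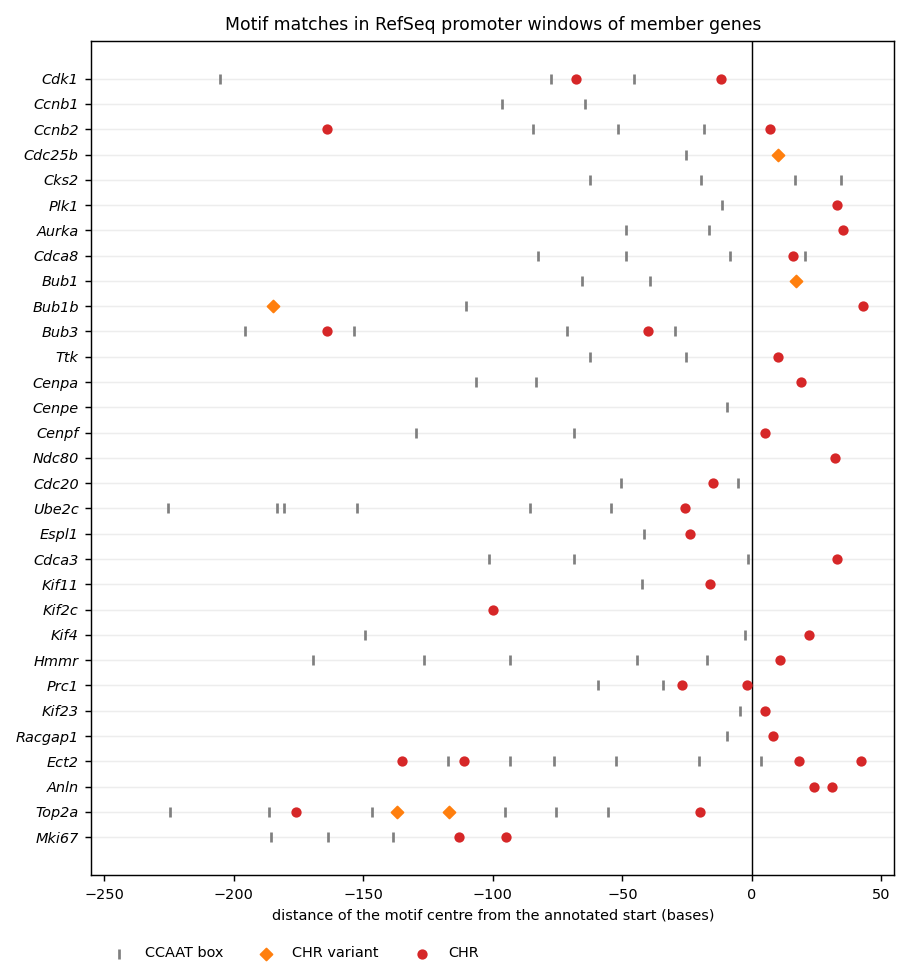
Positions of CHR (red circles), CHR variant (orange diamonds) and CCAAT (grey ticks) matches in the promoter windows of the 31 member genes with at least 1 match. The x axis gives the distance of the motif centre from the annotated start in bases, and most CHR matches (27 of 36) lie within 50 bases of it. Where a gene has overlapping windows, an element is drawn more than once.

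Of the targeted genes, Hdac1 read 0.20, 0.14 and 0.15 in wildtype and -0.07, -0.14 and -0.20 in mutant samples, a log2 difference of -0.30 ± 0.09 (SE, adjusted p = 0.476, limma). Hdac2 read -0.07, -0.18 and -0.21 in wildtype and -0.54, -0.04 and -0.28 in mutant samples, and these overlap. It is not known here whether these probes lie in the deleted parts. Of 15 nephron progenitor markers, 12 had the lower mean in mutant samples, with a median difference of -0.29 (-0.31, -0.18 and -0.30 in the pairs), and 1 was called: Cited1, which marks the least committed progenitors, fell by 2.72 (SE 0.13, adjusted p = 0.00279, limma). Eya1, Gdnf and Hoxd11 had the higher mean, and Six2 read between -0.32 and 0.21 in all 6 samples. The array of mutant 1 stood apart: different probes of one gene disagreed there with a median SD of 0.245, against 0.0826 to 0.142 on the other arrays (3916 genes). The array of wildtype 2 had 2045 outlier spots, against 183 to 247 on the others. All arrays lie on 1 slide, with each group in a row of its own and each pool number in a column of its own, so neither slide row and group nor slide column and pool number can be told apart.

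None of the 42 mitotic genes was called between mutant and wildtype progenitors at an adjusted p under 0.05 (limma), where 0.0441% of all genes were. None had an unadjusted p under 0.05 either, against 7.24% of all genes, and the lowest adjusted p was 0.729, for Tpx2. With the pool number as a block, 0 of 42 were called, against 0.15% of all genes, and 1 had an unadjusted p under 0.05. The median log2 difference over the 42 genes was -0.11, against 0.0017 over all genes, and the mutant mean was the lower one in 29. Without mutant 1 that median was 0.01. The 95% interval of the difference lay within a 1.5-fold change in either direction for 31 genes and within 2-fold for 39. Nuf2, Hmmr and Top2a were the 3 genes with wider intervals. Without mutant 1, intervals lay within 1.5-fold for 41 of 42 genes.

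The genes differed mainly in 1 of the 3 pairs of same-numbered samples. In pool 1 the mutant was lower in 30 of 42 genes (71.4%, against 52.2% of all genes), with a median difference of -0.28, against -0.02 over all genes. This median lay between -0.49 and -0.20 under the other scalings tried. In the same pair 8 genes (19%) were lower by at least 1.5-fold, against 8.98% of all genes. None was higher by that much, against 3.89% of all genes. In pool 2 the median was -0.01 (all genes 0.05), and median centring in place of loess moved it to 0.43 and that of all genes to 0.39. In pools 3 and 4 it was 0.0067 (all genes 0.0040). The mutant was lower in 23 genes in pool 2 (54.8%, against 39.2% of all genes) and in 20 in pools 3 and 4 (47.6%, against 49% of all genes). No member passed 1.5-fold in either direction there, against 3.25% of all genes in pool 2 and 2.51% in pools 3 and 4. In pool 2, median centring put 3 members at least 1.5-fold higher, and Cy5 levels alone put 1 lower and 2 higher. The 8 genes in pool 1 were Top2a, Nuf2, Hmmr, Cenpa, Cdc25c, Anln, Espl1 and Ube2c. Just inside the limit was Ube2c with a difference of -0.63, and just outside were Mad2l1 with -0.58 and Bub1b with -0.57. Single pairs have no replicate of their own, so no test is given for them. In such bulk samples, fewer dividing cells and less of each transcript per cell cannot be told apart. The pool 1 difference rests on 1 mutant array, on which probes of one gene disagreed most (median SD 0.245). A trait of that array therefore cannot be told apart from either.

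The mutant was lower in all 3 pairs for 13 genes (31%, against 17.4% of all genes): Cdk1, Ccnb2, Bub1b, Mad2l1, Cenpa, Ndc80, Nuf2, Ube2c, Tpx2, Hmmr, Racgap1, Ect2 and Anln. It was higher in all 3 pairs for 8 (19%, against 23% of all genes): Foxm1, Cdca8, Incenp, Cenpe, Cdca3, Prc1, Kif20a and Mki67. Both lists hold for the brightest probes. Further probes went the other way for Cdk1 (0.18 in pool 1, 0.14 in pools 3 and 4), Racgap1 (0.10 in pool 2) and Tpx2 (0.08 in pools 3 and 4). So did those of Foxm1 (-0.67) and Cdca8 (-1.24) in pool 1. Mutant 1 gave the lowest of the 6 values for 26 of the 42 genes (61.9%), and for 31.3% of all genes. Its members spread more widely than those of any other sample, with an SD of 0.42 over genes around a median of -0.28, against SDs of 0.13 to 0.18 and medians of -0.05 to 0.0037 in the other 5 samples. The SD over all genes was also highest there, at 0.42, and ran from 0.14 to 0.33 elsewhere. On the array of mutant 1 the Cy3 level of the members was higher than on the other arrays by a median of 0.04 and the Cy5 level was lower by 0.21. In the wildtype 1 array, where both dyes held one RNA, members ran from -0.31 (Kif23) to 0.26 (Cks2), which is the range that equal RNA gave here.

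**Figure D2:**
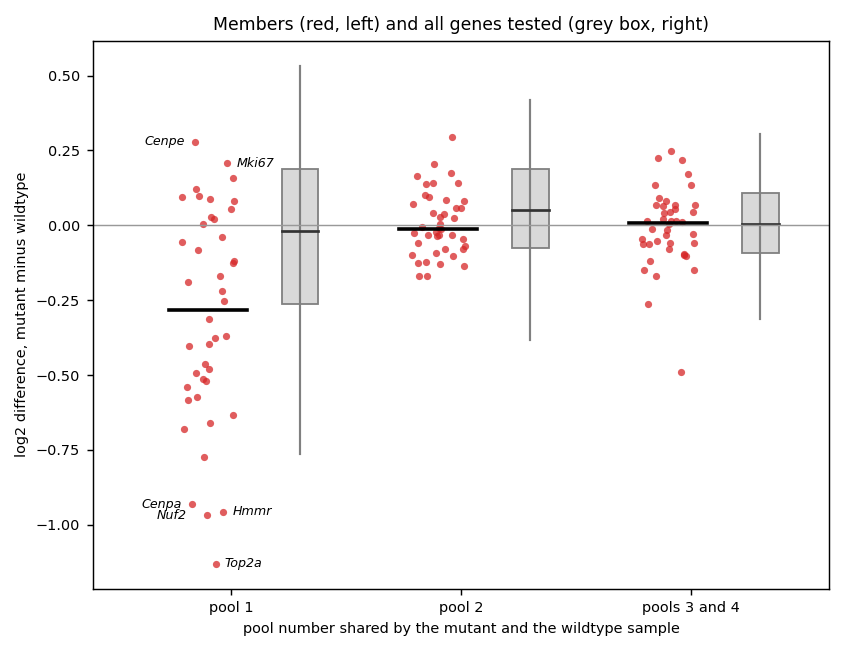
Log2 difference, mutant minus wildtype, of 42 G2/M and mitosis genes (red points, median as a black bar) in each pair of pools, beside all genes tested (grey box from the lower to the upper quartile with the median, whiskers from the 5th to the 95th percentile). The members reach from -1.13 to 0.28 in pool 1, with a median of -0.28, and centre near 0 in the other pairs.

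**Figure D3:**
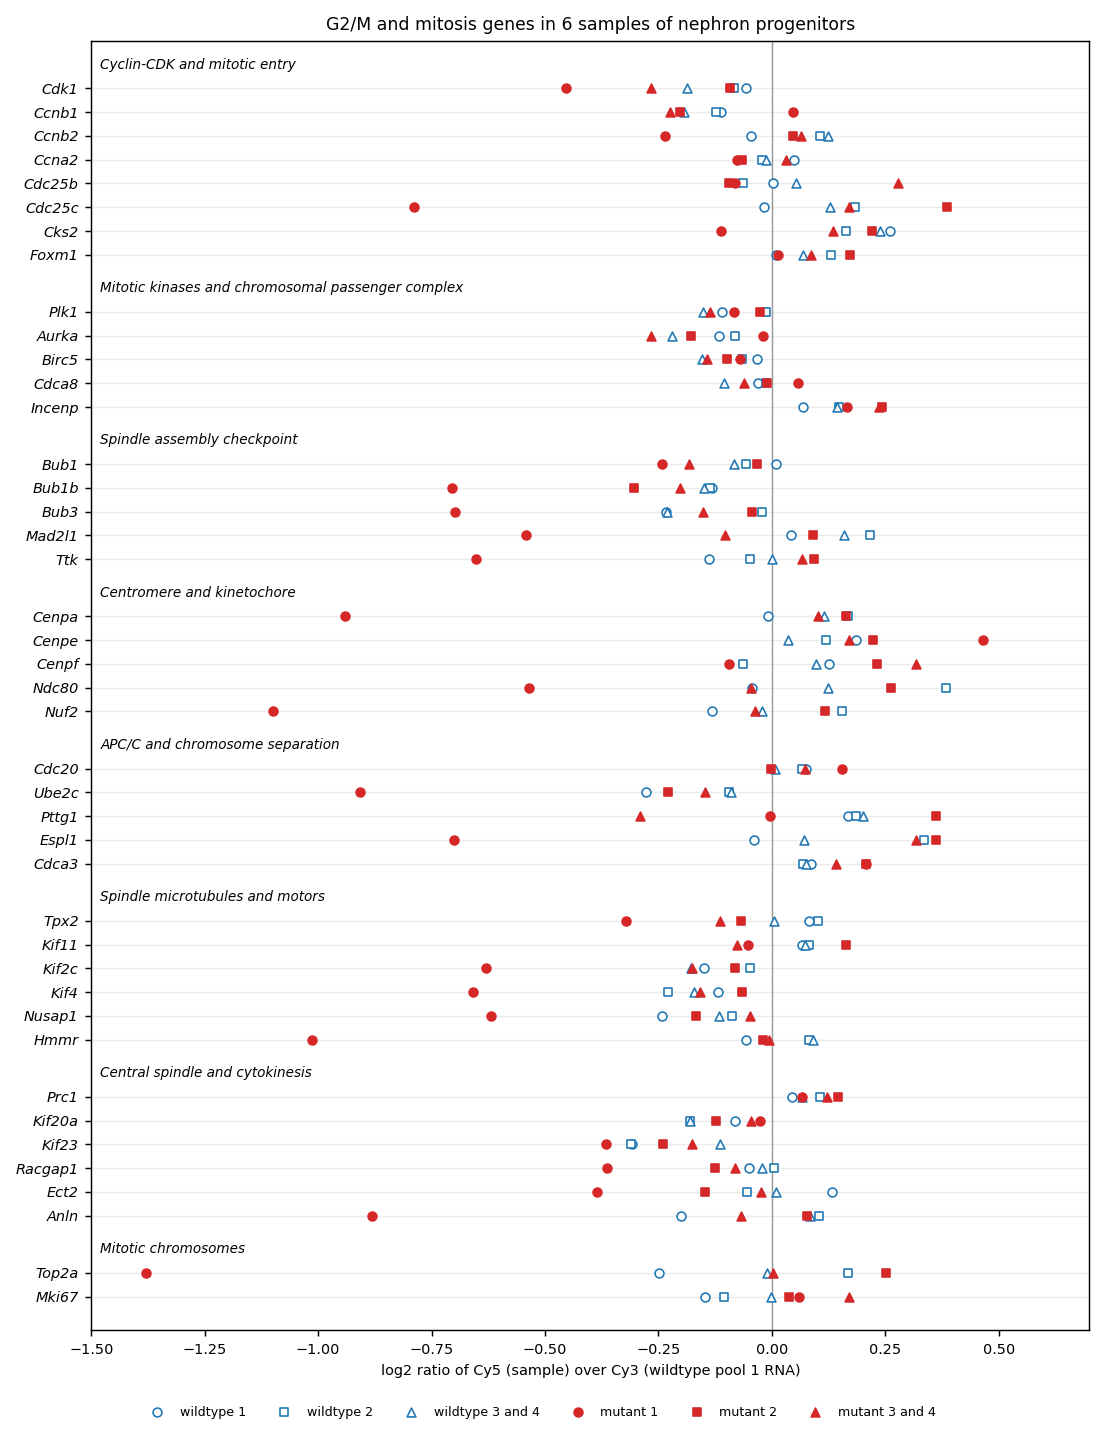
Log2 ratio of Cy5 (sample) over Cy3 (wildtype pool 1 RNA) for 42 genes grouped by role, with wildtype samples as open blue and mutant samples as filled red symbols, 1 symbol for each of the 6 samples. Mutant 1 (red circles) holds the lowest value for 26 genes, while the values of the other 5 samples lie between -0.31 and 0.39.

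Among the genes of mitotic entry, Cdk1, the kinase itself, read -0.06, -0.08 and -0.19 in wildtype and -0.45, -0.09 and -0.27 in mutant samples. The groups overlap, and the difference was -0.16 ± 0.12 (SE, adjusted p = 0.819, limma). Ccnb1, its main cyclin partner, read -0.11, -0.12 and -0.19 in wildtype and 0.05, -0.20 and -0.22 in mutant samples, a difference of 0.02 ± 0.11 whose groups also overlap. Unlike most members, Ccnb1 was higher in mutant 1 than in any other sample on this probe. The other 6 genes of this role were the second B cyclin Ccnb2, cyclin A (Ccna2), the phosphatases Cdc25b and Cdc25c that switch Cdk1 on, the Cdk1 subunit Cks2 and the transcription factor Foxm1. Their differences ran from -0.18 for Cdc25c to 0.04 for Cdc25b. Cdc25c read -0.79 in mutant 1 and 0.39 and 0.17 in the other mutant samples, so 1 mutant value lay below, 1 above and 1 within the wildtype range.

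The 5 measured mitotic kinase and passenger complex genes had a median difference of 0.09 in pool 1, -0.01 in pool 2 and 0.02 in pools 3 and 4. The pool 1 value rests on the brightest probes, since further probes of Cdca8 and Birc5 gave -1.24 and -0.64 there. Plk1, the polo kinase that acts from entry to cytokinesis, read -0.11, -0.01 and -0.15 in wildtype and -0.08, -0.03 and -0.14 in mutant samples. Its difference was 0.01 ± 0.09 (SE, adjusted p = 0.986, limma), with a 95% interval from -0.21 to 0.23. Aurka, the kinase of the spindle poles, differed by -0.02, and of the partners of the unmeasured Aurkb, survivin (Birc5) differed by -0.02 and borealin (Cdca8) by 0.05. Incenp, the scaffold of that complex, read 0.07, 0.15 and 0.14 in wildtype and 0.17, 0.24 and 0.24 in mutant samples. Its groups do not overlap, and the difference was 0.09 ± 0.09 (SE).

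Incenp was 1 of 3 genes with every mutant above every wildtype sample, beside Cdca3 and Mki67 (7.14% of 42, against 8.72% of all genes). In Bub1b, Tpx2 and Racgap1 every mutant was below every wildtype sample (7.14%, against 5.95% of all genes). These shares are near those of all genes and rest on the brightest probes. On a further probe the groups of Mki67, Tpx2 and Racgap1 overlapped, and those of Incenp did not. With 3 samples against 3, an exact permutation test of 1 gene cannot give a two-sided p below 0.1.

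The 5 genes of the spindle assembly checkpoint, which delays anaphase until chromosomes are attached, all had the lower mean in mutant samples. Their median difference in pool 1 was -0.51, the lowest of the roles with more than 2 genes, and -0.02 and -0.05 in the other pairs. Mad2l1, which inhibits the APC/C activator Cdc20, read 0.04, 0.22 and 0.16 in wildtype and -0.54, 0.09 and -0.10 in mutant samples. Mutant 2 lay within the wildtype range and the other mutant samples below it. The difference was -0.32 ± 0.17 (SE, adjusted p = 0.761, limma), and it was negative in all 3 pairs, at -0.58, -0.13 and -0.26. This was the gene that limma gave an unadjusted p under 0.05 in the fit with the block (adjusted p = 0.356).

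Bub1b, which encodes the checkpoint protein BubR1, read -0.13, -0.14 and -0.15 in wildtype and -0.71, -0.30 and -0.20 in mutant samples. Its wildtype values were almost equal and all 3 mutant values lay below them, mutant 1 farthest. The difference was -0.26 ± 0.14 (SE, adjusted p = 0.773, limma). The kinases Bub1 and Ttk and the adaptor Bub3 differed by -0.11, -0.10 and -0.14, with Ttk and Bub3 clearly apart from the rest in mutant 1 alone (-0.65 and -0.70).

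Of the 5 centromere and kinetochore genes, 4 were lower in the mutant of pool 1, and their median there was -0.49. Cenpa, the histone H3 variant of centromeres, read -0.01, 0.17 and 0.11 in wildtype and -0.94, 0.16 and 0.10 in mutant samples. Mutant 2 and mutant 3 and 4 lay within the wildtype range. The difference was -0.32 ± 0.29 (SE, adjusted p = 0.824, limma), and 0.04 without mutant 1. Nuf2, a subunit of the NDC80 complex that holds microtubules, read -0.13, 0.15 and -0.02 in wildtype and -1.10, 0.12 and -0.04 in mutant samples, again with 2 mutant samples within the wildtype range. Its difference of -0.34 ± 0.31 (SE) became 0.04 without mutant 1. Its partner Ndc80 differed by -0.49 in pool 1 and by -0.12 and -0.17 in the other pairs.

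Cenpe, the kinesin that carries chromosomes to the spindle equator, read 0.19, 0.12 and 0.04 in wildtype and 0.46, 0.22 and 0.17 in mutant samples. It was the highest gene of mutant 1, and only mutant 3 and 4 reached into the wildtype range. The difference was 0.17 ± 0.11 (SE, adjusted p = 0.803, limma). Cenpf, a large kinetochore protein, read 0.13, -0.06 and 0.10 in wildtype and -0.09, 0.23 and 0.32 in mutant samples. Mutant 1 was below all wildtype values and the others above them, so the pair differences were -0.22, 0.30 and 0.22.

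In the group around the APC/C, Ube2c, the ubiquitin-conjugating enzyme that works with this ligase, read -0.28, -0.09 and -0.09 in wildtype and -0.91, -0.23 and -0.15 in mutant samples. Only mutant 1 left the wildtype range. The difference was -0.27 ± 0.21 (SE, adjusted p = 0.819, limma), with -0.63, -0.13 and -0.06 in the pairs. Cdca3, a factor of mitotic entry and cyclin turnover, read 0.09, 0.07 and 0.07 in wildtype and 0.21, 0.21 and 0.14 in mutant samples. The groups do not overlap, and the difference was 0.11 ± 0.09 (SE, adjusted p = 0.819, limma).

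Cdc20, the APC/C activator of metaphase, differed by 0.03. Espl1, the separase that cuts cohesin, read -0.70 in mutant 1 and 0.36 and 0.32 in the other mutant samples. Pttg1, the securin that inhibits separase, departed from the others in a different sample: it read 0.17, 0.19 and 0.20 in wildtype and -0.0033, 0.36 and -0.29 in mutant samples. The value of mutant 3 and 4 came from 2 arrays that read -0.32 and -0.26, and the pair difference of -0.49 was the lowest of the 42 genes in those pools. A dimmer second probe of Pttg1 differed by -0.19 in the same pair.

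All 6 genes of the spindle and its motors had the lower mean in mutant samples and were lower in the mutant of pool 1, with a median of -0.44 there. Tpx2, which activates Aurora A on spindle microtubules, read 0.08, 0.10 and 0.0059 in wildtype and -0.32, -0.07 and -0.12 in mutant samples. On this probe every mutant value lay below every wildtype value, and the pairs differed by -0.40, -0.17 and -0.12. On a dimmer second probe the groups overlapped, and the pairs differed by -0.21, -0.08 and 0.08. The difference was -0.23 ± 0.10 (SE, adjusted p = 0.729, limma). Hmmr, a microtubule-binding hyaluronan receptor, read -0.06, 0.08 and 0.09 in wildtype and -1.01, -0.02 and -0.0059 in mutant samples. It had the largest mean difference of the 42 genes, -0.38 ± 0.27 (SE, adjusted p = 0.816, limma), of which the pairs gave -0.96, -0.10 and -0.10. The motors Kif11 and Kif4, the microtubule-depolymerising kinesin Kif2c and the spindle protein Nusap1 differed by -0.17 to -0.06, with 3 of the 4 between -0.66 and -0.62 in mutant 1, and Kif11 at -0.05.

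Genes of the central spindle and cytokinesis were divided. Ect2, the exchange factor that activates RhoA at the cleavage site, read 0.13, -0.05 and 0.0096 in wildtype and -0.39, -0.15 and -0.02 in mutant samples. Mutant 3 and 4 lay within the wildtype range, and the difference was -0.21 ± 0.12 (SE, adjusted p = 0.786, limma). Anln, the anillin scaffold of the contractile ring, read -0.20, 0.10 and 0.08 in wildtype and -0.88, 0.08 and -0.07 in mutant samples, with only mutant 1 outside the wildtype range. Its difference of -0.29 ± 0.25 (SE) was 0.0096 without mutant 1. Racgap1, the GTPase-activating subunit of centralspindlin, differed by -0.17, and its kinesin partner Kif23 by -0.02. The microtubule bundler Prc1 and the kinesin Kif20a were slightly higher in the mutant of every pair, with differences of 0.04 and 0.08.

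The 2 genes of mitotic chromosomes went in opposite directions in pool 1. Top2a, the topoisomerase that untangles sister chromatids, read -0.25, 0.17 and -0.01 in wildtype and -1.38, 0.25 and 0.0031 in mutant samples. Mutant 1 was at 45.7% of wildtype 1, a 2.19-fold lower ratio, whereas mutant 2 was above all wildtype values. The difference was -0.34 ± 0.40 (SE, adjusted p = 0.848, limma), and 0.16 without mutant 1. Mki67, the proliferation marker Ki-67 that coats mitotic chromosomes, read -0.15, -0.10 and -0.0009 in wildtype and 0.06, 0.04 and 0.17 in mutant samples. On this probe every mutant value lay above every wildtype value, with pair differences of 0.21, 0.14 and 0.17. On a second probe, almost as bright, the groups overlapped, with mutant 2 at 0.0037 and wildtype 3 and 4 at 0.03. Its pair differences were 0.23, 0.08 and 0.12. The difference was 0.17 ± 0.09 (SE, adjusted p = 0.777, limma), with a 95% interval from -0.05 to 0.40.

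Different probes of one gene did not give the same value in pool 1. For 13 members more than 1 probe passed the filter. The 3 probes of Ccnb1, brightest first, differed by 0.16, -1.21 and -0.0022 in pool 1, and those of Cdca8 by 0.09 and -1.24. The brightest probe of Foxm1 gave 0.0047 and the second -0.67, and the 3 probes of Birc5 gave -0.04, -0.64 and -0.12. For Cdk1, the brightest probe gave -0.40 and the other one 0.18. Other genes gave 1 direction in pool 1 on all their probes: Mad2l1 gave -0.58, -1.07 and -0.78, Ube2c -0.63 and -0.96, and Tpx2 -0.40 and -0.21. The probes of Mki67 gave 0.21 and 0.23, and those of Incenp 0.10 and 0.11.

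The gap between the highest and the lowest probe was 1 or more for 2 of the 13 members in pool 1 and for none in the other pairs. Over all genes with several probes it was that wide for 6.39% in pool 1, 0.707% in pool 2 and 0.153% in pools 3 and 4. The median gap of the members was 0.331 in pool 1, 0.0917 in pool 2 and 0.0538 in pools 3 and 4, against 0.347, 0.166 and 0.0945 over all such genes. Members with a brighter probe were less low in pool 1 (Spearman correlation of Cy5 level and difference across the 42 genes 0.54, against -0.17 and 0.16 in the other pairs). The correlation was not computed over all genes, so it cannot be called particular to the members. The points of a pair all come from the same arrays and are not independent. The 26 members with a CHR in the promoter window had a median pool 1 difference of -0.43, and the 10 without -0.21, which is given as a description.

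**Figure D4:**
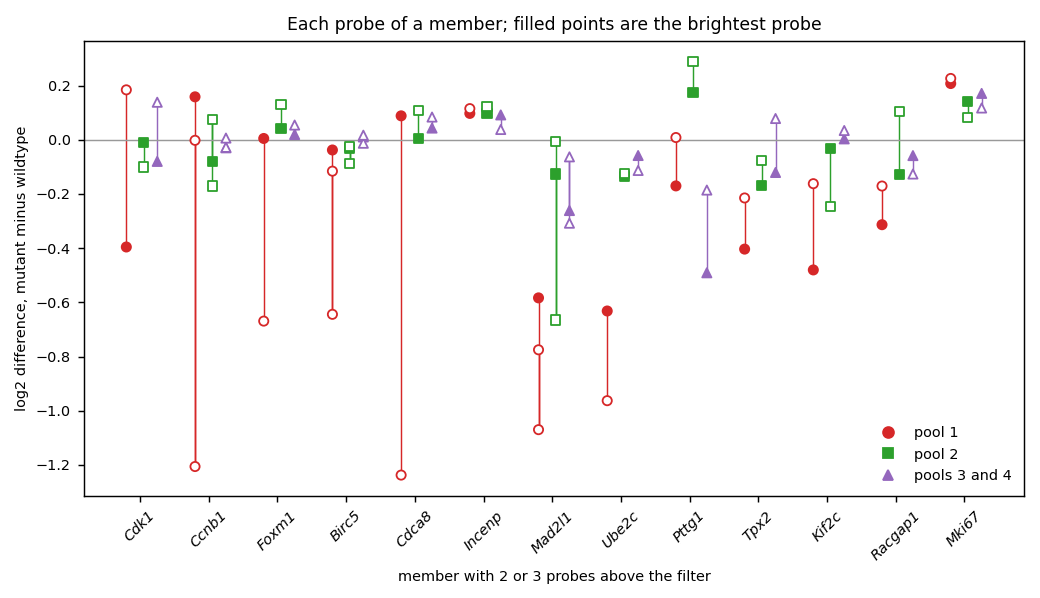
Log2 difference, mutant minus wildtype, of every probe of the 13 members with 2 or 3 probes, in pool 1 (red circles), pool 2 (green squares) and pools 3 and 4 (purple triangles), with the brightest probe filled and lines joining probes of one gene. Probes of Ccnb1 and Cdca8 spread over more than 1 log2 unit in pool 1, while those of Mki67 and Incenp nearly coincide there.

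A further list held 97 mitotic genes outside the 43. Of 93 measured, 0 were called in either direction (limma), with or without the block, and 0 had an unadjusted p under 0.05 without it. Their median differences were -0.21 in pool 1, 0.03 in pool 2 and -0.01 in pools 3 and 4. In pool 1, 73 of 93 were lower in the mutant and 19 by at least 1.5-fold, against 52.2% and 8.98% of all genes. Of these, 32 kinetochore genes had a pool 1 median of -0.28, 19 kinesin and spindle genes -0.26 and 8 condensin genes -0.31. The 15 subunit and partner genes of the APC/C had -0.03, with 9 lower and 0 by 1.5-fold. The lowest p belonged to 3 kinetochore genes. Zwilch differed by -0.26 ± 0.12, Cenpw by -0.30 ± 0.15 and Pmf1 by -0.22 ± 0.12 (SE), with adjusted p from 0.729 to 0.768 (limma).

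Of 22 regulators of these genes (MuvB, B-Myb and pocket protein families and E2F factors), 0 were called and the median difference was 0.02, with -0.0067, 0.06 and -0.03 in the pairs. E2f1, an activator of S phase genes, read -0.0090, -0.01 and -0.19 in wildtype and 0.51, 0.11 and 0.09 in mutant samples. All 3 mutant values were above the wildtype values, and the difference was 0.31 ± 0.14 (SE, adjusted p = 0.731, limma). The MuvB subunits Lin52 and Lin9 differed by 0.13 and -0.23. Of 35 measured genes of DNA replication, 0 were called, and their medians were -0.19 in pool 1, 0.04 in pool 2 and 0.0049 in pools 3 and 4. As with the mitotic genes, only the pool 1 median of the replication genes was clearly below 0.

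Lists of markers of other cells differed in their pair medians. Proximal tubule markers had median differences of -1.05, -0.57 and -1.31 in the 3 pairs, with 11 of 12 lower in the mutant mean, podocyte markers -0.85, -0.42 and -0.92, with 7 of 7 lower, and renal vesicle markers -0.58, -0.33 and -0.37, with 7 of 10 lower. Interstitial stroma markers had 0.30, 0.11 and 0.35, with 1 of 12 lower in the mutant mean. Endothelial markers had 0.40, 0.25 and 0.12, and ureteric bud markers 0.24, 0.07 and 0.33, each with 3 of 10 lower in the mutant mean. In pool 1, 3 endothelial markers were lower by at least 1.5-fold and 2 were higher by that much. For ureteric bud markers these counts were 1 and 1. Macrophage markers had -0.12, 0.07 and 0.20, with 6 of 9 lower in pool 1, and erythroid markers -0.13, 0.02 and 0.30, with 7 of 10 lower in pool 1. Sample medians of the proximal tubule list ran from -1.31 to 0.86 in wildtype and from -1.95 to -0.51 in mutant samples. The tubule, podocyte and renal vesicle medians were below 0 in each pair. The renal vesicle, macrophage and erythroid medians, like those of the mitotic genes, the replication genes and the nephron progenitor markers, were lowest in pool 1. The part of these cells in the values of the mitotic genes was not tested.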

How the data were processed

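Per the file headers, the deposited scanner files hold intensity on a linear scale, as median brightness of spot and local background in each dye. The submitters' processing notes name Agilent Feature Extraction 10.7.3.1. The authors' deposited log ratios, in the same files and in the value table of the series, are log10 of Cy5 over Cy3 and were used as an alternative after conversion to log2. The columns of that table differed from the scanner files by at most 0.00498.

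Background was corrected by normexp with an offset of 50, and loess was run within arrays without weight on control and outlier spots (limma 3.58.1, R 4.3.3). Median spot and median background signals were the input. Probes had to exceed background clearly in Cy5 on 3 or more of the 4 arrays of a group (30364 of 55681 did), and 1 probe per gene, the brightest in Cy5, gave 22662 genes. Symbols came from a RefSeq table of GRCm38.p6 through unversioned accessions and named 27509 probes.

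Between arrays, the median absolute deviation of Cy3 levels, which come from one RNA, was 0.0667 to 0.115 (21 pairs of arrays, wildtype 2 left out). Cy5 levels of pools 3 and 4 differed by 0.0840 in wildtype and 0.0890 in mutant arrays, and other pairs by 0.162 to 0.514. Samples with the same number deviated together from their group means (r = 0.495, 0.543 and 0.527 over 22328 genes), and samples with unlike numbers gave r from -0.454 to -0.0777. Deviations from a group mean cancel out within the group, so the negative values follow in part from the positive ones and add no evidence. The samples were treated as paired by number on the evidence of the same-numbered values, since no label states a pairing, and slide column and pool number cannot be told apart.

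The test was the two-sided moderated test of limma with Benjamini-Hochberg adjustment over every gene and a threshold of 0.05. The procedure was tested on simulated data with independent noise. The planted changes were much larger than any mean difference of a member, so sensitivity to small differences was not tested. Precision is limited by the number of arrays, since signals carry no counts. The members and lists were chosen with earlier results of these data known. Sample values are given for the 8 members with the largest differences, the 5 with the lowest p, the 3 with the largest difference of one sign outside pool 1, the 3 with the largest positive difference, and Cdk1, Ccnb1, Plk1, Top2a and Mki67. Aurkb was also named by this rule but has no value. Those of Incenp, Pttg1, Cdc25c and Espl1 were added after their values were seen. Alternatives covered background, normalization, filter, probe choice, variance model, block and left-out samples.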

Additional observations from a re-analysis of the deposited data

How the results depend on the processing

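No member was called under any of 24 alternatives, and the lowest adjusted p among members was 0.297 (Tpx2, with the 8 arrays as separate samples). The number of all genes called, 10, was 34 with the replicate block, 257 with 8 arrays as separate samples, 5 with a trended and robust variance and 0 with Cy5 levels alone. It ran from 1 to 9 when a sample was left out. Dropping pool 1, or pools 3 and 4, from both groups gave 0, blocked or not, and dropping pool 2 gave 0, or 47 with the replicate block. Among the listed marker genes, the replicate block also called Meox2 and Pdzk1, both lower in the mutant (adjusted p = 0.0313 each, limma).

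Median centring moved the member median to -0.49 in pool 1 (all genes -0.14) and 0.43 in pool 2 (all genes 0.39), against -0.28 and -0.01 with loess. Members whose groups do not overlap numbered 6, and 0 with median centring, 3 with Cy5 levels alone, 5 over the median of all kept probes and 4 with 8 arrays as separate samples. They numbered 8 to 14 without 1 sample, and 18, 16 and 13 without the pair of pool 1, of pool 2 and of pools 3 and 4, since fewer samples overlap less often. The 8 members at least 1.5-fold lower in pool 1 numbered 6 to 18 under other scalings.

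Of 408 single values of 17 members, 390 kept their direction and 18 did not. Leaving out 1 sample moved Top2a over -0.66 to 0.16, Nuf2 over -0.57 to 0.039, Cenpa over -0.51 to 0.042 and Anln over -0.47 to 0.0096, each positive only without mutant 1. It moved Ccnb1 over -0.070 to 0.065, negative without mutant 1 and without wildtype 3 and 4 (-0.0091), and Plk1 over -0.020 to 0.049, negative without wildtype 3 and 4 and without mutant 2 (-0.018). Without pool 1 in both groups Top2a was 0.048 and Ccnb1 -0.055, and without pool 2 Cenpf was -0.00072, with or without the replicate block. With processed signals Ccnb1 was -0.0037 and Plk1 -0.035, with the deposited ratios Plk1 was -0.025, and over the median of its probes Ccnb1 was -0.056. Apart from the samples left out, the causes were not tested. Aquantile leaves these ratios as they are by construction.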

Other observations

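Among 14 measured genes of CDK inhibition and G1, 0 were called (limma), and 2 had an unadjusted p under 0.05, as did 7.24% of all genes. These were chosen for mention after their values were seen. Ccnd1, the cyclin D1 that drives G1, was also on the list of renal vesicle markers, whose median was below 0 in each pair. Ccnd1 read 0.06, 0.02 and 0.0020 in wildtype and -0.59, -0.28 and -0.27 in mutant samples, a difference of -0.41 ± 0.12 (SE, adjusted p = 0.464, limma). Every mutant value lay below every wildtype value, and the pairs differed by -0.65, -0.30 and -0.27. Cdkn2d, the inhibitor p19 of the D-cyclin kinases, read -0.12, -0.22 and -0.09 in wildtype and 0.43, 0.06 and 0.16 in mutant samples, a difference of 0.36 ± 0.12 (SE, adjusted p = 0.555, limma). Here every mutant value lay above every wildtype value. The median of the list was -0.02, against 0.0017 over all genes.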
